A study of Oreochromis niloticus with 24 samples.

Results

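Follicle-stimulating hormone (FSH) cells of female Nile tilapia, Oreochromis niloticus, were compared with the negative cells of the same pituitaries across all 1849 genes of the female table, out of 2932 genes named in the female and male tables together. No gene of that table was left out, and both directions are described: the genes that mark FSH cells and those that stood lower in them than in negative cells. The fish were sexually mature, of the Lake Manzala strain, and carried a pair of transgenes in every group: green fluorescent protein (GFP) driven by the FSH promoter and red fluorescent protein (RFP) driven by the luteinizing hormone (LH) promoter. Female pituitaries were pooled (20 a pool in the series record, though the study's methods give fewer fish for some pools), digested and sorted by fluorescence into GFP-positive FSH cells, RFP-positive LH cells and non-fluorescent negative cells, and the sort was carried out 4 times, which gave 4 libraries for each fraction (n = 4). A library is therefore a pool of fish, the FSH fraction is defined by reporter activity, and the negative fraction is a mixture of all pituitary cells without a reporter. Cells carrying both reporters were not analysed here, and neither were growth hormone, prolactin, thyrotropin, pro-opiomelanocortin and somatolactin.

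FSH is a heterodimer of a hormone-specific beta subunit and the alpha subunit that it shares with LH and thyrotropin. In teleost fish FSH and LH are made in separate cells, and both respond to gonadotropin-releasing hormone (GnRH) and to steroids fed back from the gonad. FSH promotes the growth of ovarian follicles, and its release depends on receptors at the cell surface, calcium and cyclic nucleotides inside the cell, and fusion of secretory granules with the membrane.

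Levels are given in normalized reads (NR), in which each gene's reads were divided by a size factor for the library. Values are listed in the order of libraries 1 to 4. Equal library numbers are taken here as the same sort, which the labels do not state. NR are not corrected for gene length, so they compare fractions for a gene and not genes with each other. A gene was called higher or lower at a log2 fold change beyond 1, on the scale log2(NR + 1), with a Benjamini-Hochberg (BH) adjusted p below 0.05 by limma. The genes of the table held 146817 to 520458 reads in the FSH libraries and 69091 to 135385 reads in the negative libraries, which is part of each library and not its depth, and 3 reads corresponded to 2.11 to 7.21 NR and to 2.74 to 5.25 NR, respectively. The table lists genes that the authors had selected as enriched in LH or FSH cells against these same negative libraries. A higher call in FSH cells therefore repeats that selection and is a description, and a gene called lower is in the table through its level in LH cells.

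The sorted FSH cells carried the hormone genes of their label. In FSH cells fshb, the beta subunit of FSH (linkage group 1, 10247789 to 10250820 on O_niloticus_UMD_NMBU), stood at 35242, 30244, 24856 and 45449 NR. It stood at 35.6, 15.8, 69.4 and 18.7 NR in negative cells and at 38.6, 23.6, 38.3 and 47.9 NR in LH cells. FSH cells were far above both other fractions in every sort (log2 fold change 10.09, standard error 0.34, limma BH-adjusted p = 6.87e-15), though the reporter used for the sort is driven by the promoter of this gene. The alpha subunit gene cga was at 24388, 21884, 15044 and 43236 NR in FSH cells against 1514, 1918, 2949 and 1489 NR in negative cells, without overlap (log2 fold change 3.68, standard error 0.31, limma BH-adjusted p = 3.70e-09). In LH cells cga was at 3484, 2411, 1806 and 2897 NR and was not called against negative cells (log2 fold change 0.45, limma BH-adjusted p = 0.266). Together fshb and cga took 11.3 to 19.7% of the reads on the table's genes in FSH libraries and 1.19 to 2.22% in negative libraries. The beta subunit of LH, lhb (LOC100534501), was at 13.3, 13.9, 12.01 and 11.8 NR in FSH cells, at 2.74, 12.3, 11.8 and 3.30 NR in negative cells and at 1678, 1123, 1035 and 1504 NR in LH cells. Its level in FSH cells overlapped that in negative cells and was not called (log2 fold change 0.93, limma BH-adjusted p = 0.02), though it passed without sort 2 (1.18) or without sort 3 (1.23), and it was far below that of LH cells (log2 fold change -6.58, limma BH-adjusted p = 5.38e-12).

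Of the 1849 genes, 1289 were called higher (69.7%), 347 were called lower (18.8%) and 213 were neither. The median log2 fold change over all 1849 genes was 1.26. The higher genes had a median log2 fold change of 1.54 with quartiles of 1.23 and 2.13, and 35 of them lay beyond 4. The lower genes had a median of -2.74 with quartiles of -3.96 and -1.97, and 85 of them lay beyond -4. In 1178 of the higher genes every FSH library was above every negative library, and in 317 of the lower genes every FSH library was below every negative library, against 65.9% and 17.6% of all genes tested. Near the limit, fkbp1b had a log2 fold change of 1.0002 and mmp16b of 0.998, so genes with nearly the same change lie on either side of it. In bulk libraries such as these, fewer cells of a type and less RNA per cell cannot be told apart.

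**Figure D1:**
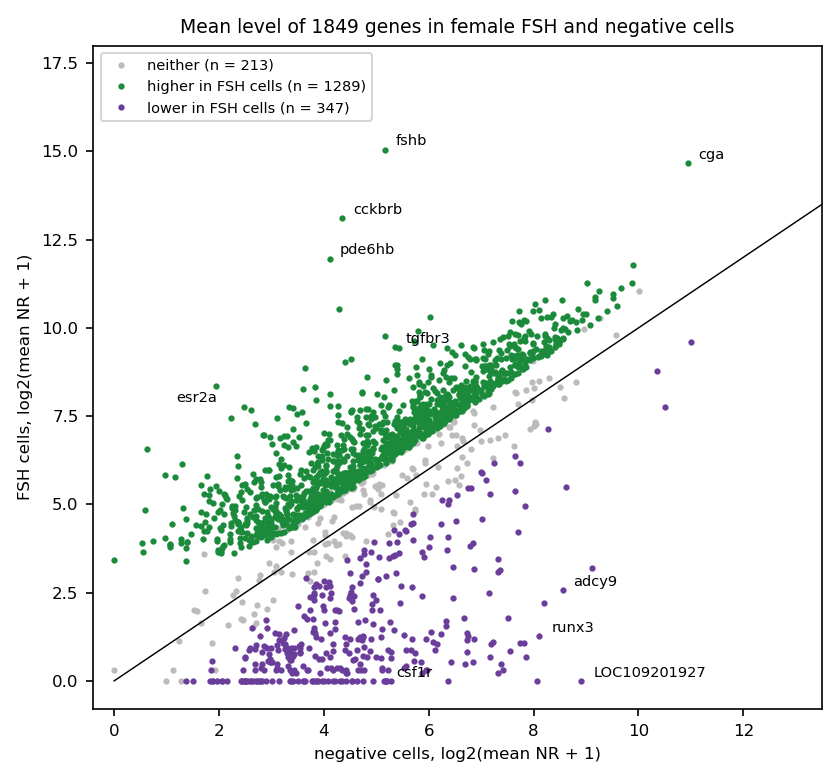
Mean level of each of the 1849 genes in negative cells (x axis) and in FSH cells (y axis), both as log2(mean NR + 1) over 4 libraries, with the line of equal levels. Green points are the 1289 genes called higher in FSH cells, violet points the 347 called lower and grey points the 213 that were neither; many of the lower genes lie at or close to 0 in FSH cells.

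The largest increase after fshb belonged to cckbrb (LOC100700667; linkage group 16, 19849293 to 19880178), a receptor for the gut and brain peptide cholecystokinin. It stood at 9668, 10030.4, 6476 and 9130.3 NR in FSH cells and at 22.8, 28.01, 8.23 and 18.7 NR in negative cells (log2 fold change 8.85, standard error 0.34, limma BH-adjusted p = 5.52e-14), with LH cells at 88.8, 66.9, 38.3 and 27.7 NR. The next was pde6hb (LOC100690909; linkage group 4, 9119836 to 9122164), whose product is the small inhibitory subunit of cone phosphodiesterase in the retina. It was at 2683, 3532, 2688 and 7075 NR in FSH cells and at 22.8, 17.5, 7.06 and 17.6 NR in negative cells (log2 fold change 7.84, standard error 0.33, limma BH-adjusted p = 2.06e-13). Sort 4 was the highest of the FSH libraries for this gene, and the lowest FSH library was still far above the highest negative library.

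A trio of neighbouring genes for tumor necrosis factor alpha-induced protein 2 on linkage group 19 rose together. LOC100693617 (6577583 to 6602942) was at 417, 316, 228 and 347 NR in FSH cells and 2.74, 5.25, 1.18 and 2.20 NR in negative cells (log2 fold change 6.49). LOC109195943 (6568125 to 6574917) was at 129.9, 92.9, 69.7 and 85.1 NR and had 2 reads in sort 4 and none in the other negative libraries, which gives a ratio of 175 with a 95% counting interval of 48.03 to 1447. LOC109195942 (6577583 to 6589500), at 47.8, 52.2, 40.8 and 73.3 NR against 0.913, 1.75, 1.18 and 1.10 NR (log2 fold change 4.59), lies inside LOC100693617 in RefSeq, so the reads of these neighbours may be shared and their separate values are uncertain. LH cells had at most 5.47 NR of any of the 3 genes in any library.

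Further down the order came genes of the cytoskeleton, cell surface and lipid metabolism. The actin-binding repeat protein gene xirp2a (LOC100698925) was at 869, 869.5, 1331 and 2865 NR in FSH cells and 15.5, 24.5, 22.3 and 12.1 NR in negative cells (log2 fold change 6.10, standard error 0.36). FSH libraries differed among themselves here, with sort 4 well above the rest and all of them clear of negative cells. The cadherin gene cdh16 was at 66.7, 49.9, 38.4 and 67.001 NR against 0.913, 1.75, 1.18 and 0 NR, and plin6 (LOC100711674), a perilipin of the lipid droplet coat, was at 62.5, 42.95, 64.9 and 108 NR against 1.83, 1.75, 1.18 and 1.10 NR. The phosphatase gene phospho1, known in mammals for its part in bone mineralization, was at 156, 128, 151 and 187 NR against 4.57, 10.5, 1.18 and 5.49 NR. Each of these genes had FSH libraries clear of the negative ones, with log2 fold changes of 4.78 for plin6 and 4.82 for phospho1. For cdh16, with 3 reads in the negative libraries together, the ratio was 68.4 with a 95% counting interval of 23.1 to 334. The heparan sulfate sulfotransferase gene ndst3 (LOC100695867), whose product modifies the sugar chains of cell surface proteoglycans, was at 530.3, 607, 404 and 547 NR against 10.96, 19.3, 19.997 and 30.8 NR (log2 fold change 4.69). The fibroblast growth factor homologue fgf13b (LOC100710934), which in mammals binds voltage-gated sodium channels rather than growth factor receptors, was at 293, 265, 408 and 254 NR against 8.22, 15.8, 9.41 and 10.99 NR (log2 fold change 4.67). LOC102076330, an uncharacterized gene, and LOC102080780 rose by log2 fold changes of 5.29 and 5.01. Of 22 genes drawn from the study's account beside the receptors, 21 were higher and 1 was lower (median log2 fold change 4.46). Over all genes 69.7% were higher and 18.8% lower, with a median of 1.26. The 22 genes too had been chosen by the study on the same libraries. The lower one, the progesterone receptor gene pgr, had so few reads that no fold is given, and its call was lost with the sort as a block and with a pseudocount of 5. Among the 5 higher genes with the highest NR in FSH cells, besides fshb, cga, cckbrb and pde6hb, was LOC102082844 at 2784, 3253, 4477 and 3432 NR against 565, 1272, 1227 and 743 NR (log2 fold change 1.93).

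**Figure D2:**
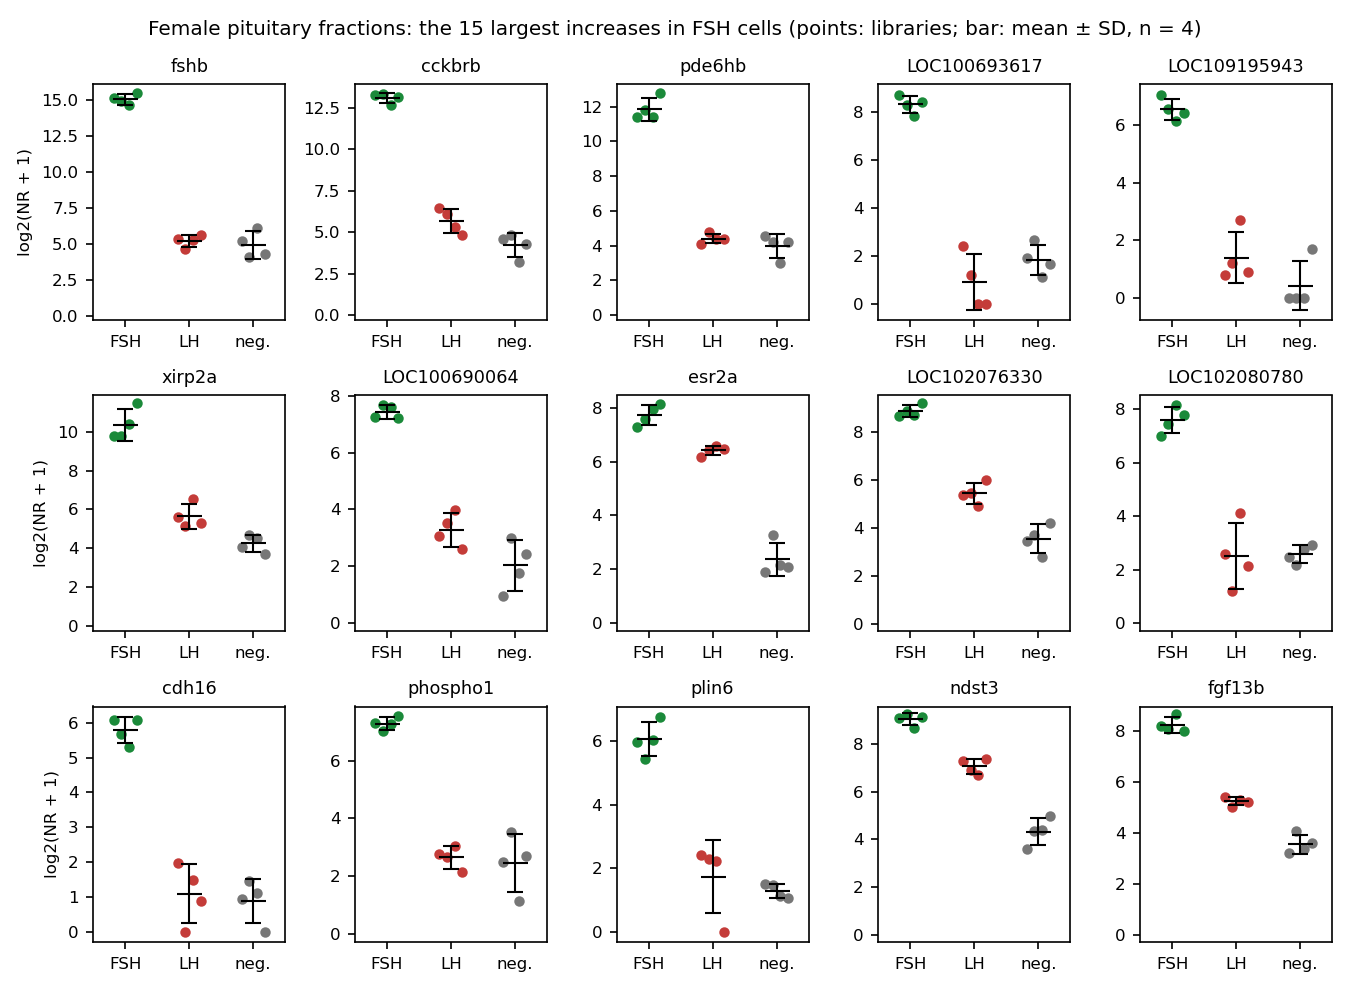
The 15 genes with the largest increase in FSH cells among those whose libraries did not overlap, each panel giving log2(NR + 1) in FSH, LH and negative (neg.) cells of females; points are libraries, the wide bar is the mean and the whiskers are the SD (n = 4). In every panel the 4 FSH libraries lie above all negative libraries, and LH cells too were called higher than negative cells for esr2a, ndst3, LOC102076330, fgf13b, cckbrb, xirp2a and LOC100690064.

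G protein-coupled receptors carry peptide, amine and lipid signals to the gonadotrophs, and they went in both directions. Of 38 receptor genes taken from the study's account, 22 were higher, 11 were lower and 5 were neither, beside 69.7% higher and 18.8% lower over all genes. The receptors had a median log2 fold change of 1.23 against 1.26 for all genes. The study chose these receptors on the same libraries, so their counts are not independent of the comparison. The list leaves out some receptors that the study gives for females. Of those counted with the macrophage and vessel markers, p2ry6, gpr84, ccr12a, xcr1a.1, LOC100711803 and ramp2 were lower, and cmklr1 and p2ry12 were neither. The counts and the median of the list depend on this choice. After cckbrb, the largest increase among these 38 was in grm5, a metabotropic glutamate receptor that couples to calcium release, at 443, 603, 295 and 229 NR against 26.5, 17.5, 37.6 and 27.5 NR (log2 fold change 3.75). The GABA-B receptor gene gabbr1, described below and outside this list, rose by more (log2 fold change 4.39). Next were gprc5a, an orphan receptor, at 27.4, 30.2, 91.3 and 121 NR against 2.74, 3.501, 5.88 and 4.39 NR, and LOC100708895, a free fatty acid receptor, at 7.02, 20.9, 19.2 and 9.05 NR with 1 read in the 4 negative libraries together. These receptors therefore stood out from a low level in negative cells, and FSH sorts 3 and 4 were highest for gprc5a while sorts 2 and 3 were for LOC100708895. The purine receptor LOC102076535, the orphan receptor gpr37 and the dopamine receptor drd5 rose by log2 fold changes of 2.71, 2.20 and 2.12. The gene LOC100710271 and the serotonin receptor htr1b rose by 1.72 and 1.54. LOC100710271 has the RefSeq symbol ghrhrb, of a growth hormone-releasing hormone receptor. The study lists it instead as a receptor for pituitary adenylate cyclase-activating polypeptide. The somatostatin receptor LOC100710302, for a peptide that restrains secretion in pituitary cells, was even across sorts at 125, 135, 149 and 143 NR against 28.3, 38.5, 39.99 and 25.3 NR (log2 fold change 2.05, standard error 0.24).

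GnRH and dopamine receptors split by gene. The GnRH receptor gene LOC100534509 was at 21.8, 16.3, 62.5 and 108 NR in FSH cells, 6.39, 21.004, 15.3 and 10.99 NR in negative cells and 4.37, 5.25, 7.29 and 5.04 NR in LH cells. Its FSH libraries overlapped the negative ones, and the call (log2 fold change 1.60, limma BH-adjusted p = 0.00571) was lost without sort 4 (log2 fold change 1.08, limma BH-adjusted p = 0.0733). Against LH cells it was higher by 2.66 (limma BH-adjusted p = 8.02e-05). The other GnRH receptor gene, LOC100534508, was at 0.702, 1.16, 2.40 and 0 NR in FSH cells, 4.57, 10.5, 4.71 and 14.3 NR in negative cells and 81.5, 56.4, 72.9 and 72.3 NR in LH cells, and was called lower in FSH cells than in both. The dopamine D4-type receptor drd4-rs (LOC100704531) was higher than in negative cells, at 202, 218, 271 and 303 NR against 88.6, 71.8, 54.1 and 104 NR (log2 fold change 1.65), and its difference from LH cells did not pass (log2 fold change 0.27, limma BH-adjusted p = 0.419). For drd2a (drd2), the receptor type through which dopamine restrains LH release in many fish, FSH cells were at 25.99, 23.2, 9.61 and 11.8 NR and negative cells at 16.4, 14.003, 15.3 and 15.4 NR (log2 fold change 0.09, limma BH-adjusted p = 0.819). That difference lay within the spread of the libraries, and its sign turned without sort 1 (-0.0958) or sort 2 (-0.116).

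Receptors for gamma-aminobutyric acid (GABA) and glutamate had members in both directions, and 69.7% of all genes were higher. In the list of metabotropic glutamate and GABA receptors 7 of 8 genes were higher and 1 was lower (median log2 fold change 1.47). The GABA-B receptor subunit gene named gabbr1 was at 320.3, 124, 142 and 108 NR against 10.05, 12.3, 5.88 and 2.20 NR (log2 fold change 4.39), with sort 1 the highest FSH library. A second gene of that subunit, gabbr1a (LOC100695498), was at 237, 235, 291 and 289 NR against 106, 94.5, 116 and 105 NR (log2 fold change 1.30). How reads were assigned between these genes was not checked. Of 5 ionotropic receptor genes for glutamate and acetylcholine, 3 were higher and 2 lower (median 1.46). Subunits of the AMPA-type glutamate receptor went both ways: gria1 rose by 1.78, gria4a (LOC100706002) was lower by -2.24, and gria2b (gria2) was lower with 3 reads in the FSH libraries.

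Most of the 11 receptors that stood lower in FSH cells had few reads there. The adhesion receptor LOC100705251 had the largest fall, at 5.62, 9.29, 9.61 and 8.15 NR in FSH cells against 719.8, 497, 341 and 663 NR in negative cells (log2 fold change -5.89, standard error 0.28). A receptor for pituitary adenylate cyclase-activating polypeptide, adcyap1r1b (LOC100710530), was at 0.702, 2.32, 0 and 2.72 NR against 129, 31.5, 155 and 108 NR. The neurotensin receptor ntsr1 was at 0, 1.16, 2.40 and 2.72 NR against 149, 24.5, 148 and 97.8 NR. Both were called (log2 fold changes -5.43 and -5.24), and sort 2 was the lowest negative library for each. The prostaglandin receptor ptger1a (LOC102080433) had 3 reads in all FSH libraries, while gpr1, at 22.8, 31.5, 25.9 and 15.4 NR in negative cells, and the angiotensin receptor agtr1, at 26.5, 3.501, 35.3 and 12.1 NR, had none. Against a floor of 3 reads in each FSH library, negative cells were at least 6.16-fold higher for gpr1 and at least 4.99-fold higher for agtr1. A muscarinic acetylcholine receptor, LOC100534567, lay at 5.62, 9.29, 4.80 and 4.53 NR against 11.9, 14.003, 8.23 and 15.4 NR and was not called (log2 fold change -0.94, limma BH-adjusted p = 0.0174), though it passed without sort 2 (-1.07) or without sort 3 (-1.02).

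**Figure D3:**
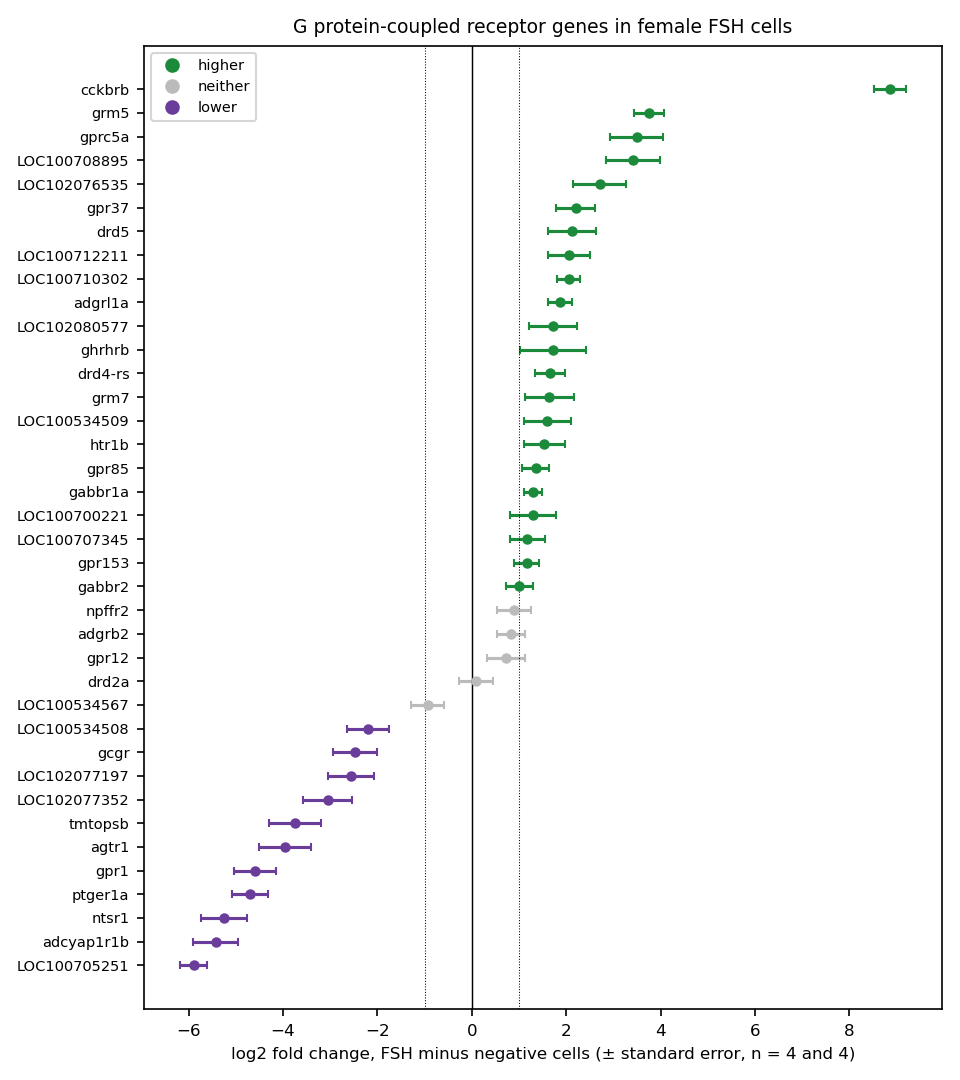
Log2 fold change of FSH minus negative cells in females for the 38 listed G protein-coupled receptor genes, which leave out gabbr1, with the standard error of the limma fit (n = 4 and 4); dotted lines mark 1 and -1. The 22 higher genes are green, the 11 lower genes violet and the 5 that were neither grey; cckbrb stands apart at 8.85.

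Nuclear receptors bind steroids and related ligands and act on genes directly, and their list split evenly. Of 11 such genes 5 were higher, 5 lower (4 with the sort as a block or a pseudocount of 5, without pgr) and 1 neither, beside 69.7% higher and 18.8% lower over all genes. The list had a median log2 fold change of -0.52 against 1.26 for all genes, or of 0 with genes of 0 to 3 reads at their bound. The estrogen receptor beta gene esr2a (esr2; linkage group 15, 16842604 to 16864547) was at 155, 189, 245 and 279 NR in FSH cells and 2.74, 8.75, 3.53 and 3.30 NR in negative cells (log2 fold change 5.36, standard error 0.30, limma BH-adjusted p = 1.50e-11), with LH cells between at 71.3, 85.3, 94.7 and 88.3 NR. Its difference from LH cells also passed (log2 fold change 1.31, limma BH-adjusted p = 0.000555). FSH cells were thus highest, LH cells next and negative cells lowest for this receptor. The estrogen-related receptor gene LOC100690064 on the same linkage group (linkage group 15, 9194017 to 9232784), an orphan receptor named for its likeness to estrogen receptors, was at 153, 203, 195 and 147 NR against 0.913, 7.001, 2.35 and 4.39 NR (log2 fold change 5.41). The androgen receptor gene ar was even across the FSH libraries at 49.9, 47.6, 43.2 and 44.4 NR against 1.83, 8.75, 5.88 and 2.20 NR (log2 fold change 3.25). The other androgen receptor gene, ara, at 244, 97.5, 171 and 95.1 NR against 49.3, 50.8, 126 and 63.7 NR, overlapped between the fractions, and its call (log2 fold change 1.05) was lost without sort 1 (log2 fold change 0.645, limma BH-adjusted p = 0.105). How reads were assigned between ar and ara was not checked. The liver and gut factor hnf4a was at 101, 55.7, 26.4 and 35.3 NR in FSH cells, 2.74, 3.501, 2.35 and 1.10 NR in negative cells and 49.5, 38.04, 34.6 and 38.7 NR in LH cells, and its difference from LH cells did not pass (log2 fold change 0.26, limma BH-adjusted p = 0.524). On the lower side were pparg, a regulator of fat cells and macrophages, at 1.40, 0, 0 and 1.81 NR against 19.2, 24.5, 45.9 and 24.2 NR, and the immediate early orphan receptors nr4a2 and nr4a3. The levels of nr4a2 were 11.9, 9.29, 7.21 and 11.8 NR against 268, 54.3, 142 and 175 NR, and those of nr4a3 were 401, 365, 401 and 600.3 NR against 1516, 1402, 859.9 and 1462 NR (log2 fold changes -3.68 and -1.56). Both were below negative cells in every FSH library, nr4a3 while still well detected.

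Ion channels set the electrical activity that admits calcium for secretion. Of 10 potassium channel genes 9 were higher and 1 was lower (median log2 fold change 2.03), all 3 sodium channel genes were higher (median 1.30), and of 16 calcium channel and store genes 12 were higher, 3 lower and 1 neither (median 1.25), beside 69.7% higher over all genes. The potassium channel subunit kcnab1 was at 91.3, 84.7, 69.7 and 80.6 NR against 3.65, 3.501, 4.71 and 4.39 NR (log2 fold change 4.03), the inward rectifier kcnj4 (LOC100696706) at 54.1, 68.5, 24.02 and 21.7 NR against 0, 5.25, 9.41 and 4.39 NR, and the K2P-family channel kcnk4a (LOC106098186) at 35.8, 27.9, 43.2 and 109 NR against 6.39, 3.501, 4.71 and 15.4 NR. These genes had few reads in LH cells as well, with at most 5.47 NR in any LH library. The small-conductance calcium-activated channel kcnn1b (LOC100703448) rose by 2.79. The ERG-type channel kcnh6a (LOC100702614) was at 914, 944, 997 and 689 NR against 213, 208, 184 and 229.6 NR (log2 fold change 2.07). The exception was the K2P-family channel kcnk13, without a read in any FSH library against 21.9, 5.25, 18.8 and 4.39 NR in negative cells, which is at least 3.25-fold. Among the sodium channel genes, scn3b, an accessory subunit, was at 332, 323, 211 and 252 NR against 84.03, 43.8, 104 and 90.1 NR, and the sodium leak channel gene nalcn, which supports background depolarization, was at 558, 565, 605 and 699 NR against 226, 208, 336 and 227 NR. Both were higher in every FSH library than in any negative library. The auxiliary calcium channel subunit cacna2d1 was at 209, 175, 156 and 244 NR against 6.39, 12.3, 18.8 and 6.59 NR (log2 fold change 4.14), cacnb1 rose by 2.30 and the cation channel trpc7b (LOC100711831) by 2.15. Among the pore-forming subunits, the T-type cacna1ia (LOC100696380) rose by 1.75, the L-type cacna1d by 1.23 and the R-type cacna1ea (LOC100706720) by 1.04. The heat- and capsaicin-gated channel trpv1 (LOC100701681) had 1 read in the FSH libraries and 21.9, 35.01, 11.8 and 14.3 NR in negative cells.

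Genes for packing and releasing hormone are set beside the 69.7% of all genes called higher and their median of 1.26. Of 11 genes for granule proteins and prohormone processing 9 were higher, none was lower and 2 were neither (median log2 fold change 1.30). The prohormone convertase gene pcsk1 was at 1251, 1284, 1151 and 2880.2 NR against 287, 168, 301 and 276 NR, the convertase chaperone scg5 at 1499, 1212, 665 and 1268 NR against 201, 122.5, 247 and 198 NR, and the convertase inhibitor pcsk1nl (LOC100706330) at 2454, 2429.8, 2496 and 2428 NR against 521, 345, 763 and 442 NR. Their log2 fold changes were 2.59, 2.57 and 2.30, and pcsk1nl was nearly level across the FSH libraries while pcsk1 was highest in sort 4. The granule protein secretogranin II, scg2b (LOC100697209), was at 1316, 1363, 1424 and 2999.7 NR against 243, 359, 567 and 324 NR, with sort 4 the highest. The amidating enzyme gene pam, the convertase gene pcsk2 and the carboxypeptidase gene cpe, which trim and finish peptides, rose by 1.68, 1.30 and 1.06. Another granule protein gene, chgb, lay at 18.3, 12.8, 31.2 and 42.6 NR against 38.4, 50.8, 29.4 and 38.5 NR and was not called (log2 fold change -0.68, limma BH-adjusted p = 0.158).

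In the exocytosis list 26 of 30 genes were higher, 1 was lower and 3 were neither (median log2 fold change 1.39). The largest change was in otof, the calcium sensor of vesicle fusion in inner ear hair cells, at 773, 1082, 961 and 653 NR against 31.97, 38.5, 38.8 and 29.7 NR (log2 fold change 4.58, standard error 0.20). The granule-docking protein gene sytl4 was at 129, 115, 108 and 52.5 NR against 12.8, 10.5, 8.23 and 2.20 NR, and complexin cplx1 (LOC100691349), which clamps and then aids fusion, at 343, 244, 226 and 295 NR against 29.2, 33.3, 27.1 and 35.2 NR. Each was clear of negative cells in all FSH libraries. Synaptotagmin syt1, a fast calcium sensor, rose by 2.00. Genes of the fusion complex itself rose less, with vamp2 (LOC100699312) at 1.37 and snap25 at 1.01 on the log2 scale, and of the priming factors unc13c rose by 2.08 and unc13a by 1.41. The slower sensor syt7a (LOC100690092) was lower instead, at 121, 153, 156 and 127 NR against 284, 207, 386 and 355 NR (log2 fold change -1.11), and just missed the fold limit without sort 4 (-0.985). Of 29 secretory pathway and glycosylation genes 23 were higher, 3 lower and 3 neither (median 1.21). They included rab27b, a small GTPase of granule traffic, at 218, 221, 249.8 and 276 NR against 53.9, 35.01, 74.1 and 52.7 NR, and chst8 (LOC100692394), a carbohydrate sulfotransferase gene, at 659.6, 611, 459 and 831 NR against 281, 217, 395 and 256 NR. The call of chst8 (log2 fold change 1.16) was lost without sort 4 (0.976). Sialyltransferases, which cap sugar chains, rose as well, st6galnac5b (LOC100710738) by 2.64, st6galnac5 by 2.16 and st8sia2 by 1.47. Of 5 subunits of the vacuolar ATPase, the pump that acidifies granules, 4 were higher and 1 was neither (median 1.07), but only 1 was higher with a pseudocount of 5.

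**Figure D4:**
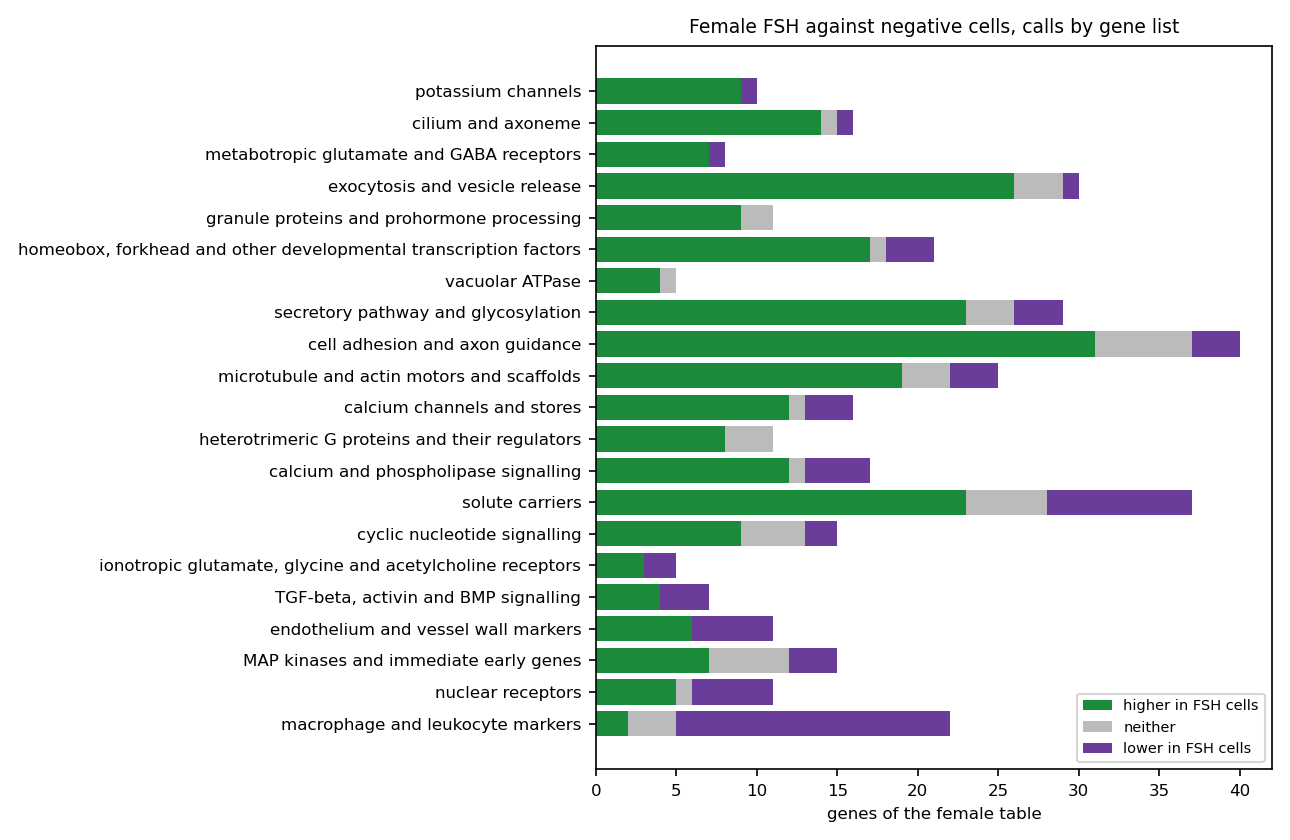
Number of genes called higher, neither or lower in female FSH against negative cells in each gene list with 5 or more genes of the table, leaving out those taken from the study's account, ordered by the share called higher. Among these lists, potassium channels (9 of 10) have the largest share of higher genes and macrophage and leukocyte markers the smallest (2 of 22); of all 1849 genes, 69.7% were higher and 18.8% lower.

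Members of the same enzyme families of cyclic nucleotide signalling went in opposite directions. Of 15 cyclic nucleotide genes 9 were higher, 2 lower and 4 neither (median log2 fold change 1.42), beside 69.7% higher, 18.8% lower and a median of 1.26 over all genes. Among adenylate cyclases, the calcium-stimulated adcy1a (LOC100702846) was higher, at 162, 128, 209 and 213 NR against 17.4, 26.3, 30.6 and 20.9 NR (log2 fold change 2.85), and adcy9 was lower, at 4.92, 9.29, 0 and 5.43 NR against 385, 277, 362 and 480.2 NR (log2 fold change -6.38). Among phosphodiesterases, pde2a, which breaks down both cyclic AMP and cyclic GMP, rose to 178, 241, 233 and 225 NR from 12.8, 24.5, 12.9 and 15.4 NR, while pde6g, the inhibitory subunit of the rod enzyme, had 2 reads in the FSH libraries and was at 0, 0, 2.40 and 0.905 NR against 84.9, 22.8, 56.5 and 35.2 NR. The cyclic nucleotide-gated channel subunit cnga4 (LOC100695870) was at 207, 229, 233 and 143 NR against 23.7, 19.3, 25.9 and 29.7 NR (log2 fold change 2.98). In the list of G proteins and their regulators 8 of 11 genes were higher and 3 neither (median 1.20). They included genes of retinal signalling, namely gnat2 (LOC100703259), the cone transducin alpha subunit, at 35.1, 24.4, 26.4 and 12.7 NR against 4.57, 5.25, 3.53 and 2.20 NR, and rgs9, which ends transducin signalling, at 14.05, 8.13, 31.2 and 24.4 NR against 3.65, 1.75, 2.35 and 2.20 NR. In the calcium and phospholipase list 12 of 17 genes were higher, 4 lower and 1 neither (median 1.501). Among them, plch1 (LOC100703201), a phospholipase C, rose by 2.68, and prkcq, a protein kinase C of T cells in mammals, had 1 read in the FSH libraries against 21.01, 33.3, 9.41 and 17.6 NR. The inhibitor of calmodulin kinase camk2n1a (LOC100700351), the kinase camk1gb (LOC100701248) and the calcineurin subunit ppp3cca (LOC100705072) rose by 2.67, 2.48 and 2.25. The calmodulin regulator LOC100703182, which the study names PCP4, had no read in the negative libraries and 16.9, 12.8, 2.40 and 7.24 NR in FSH cells, at least 2.65-fold higher. It did not differ from LH cells by the test (limma BH-adjusted p = 0.503). Another gene of this list, itself named pcp4, was called lower in FSH than in negative cells (limma BH-adjusted p = 0.000136).

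Developmental transcription factors had a median close to that of all genes. Of 21 homeobox, forkhead and other such factors 17 were higher, 3 lower and 1 neither (median log2 fold change 1.29), beside 69.7% higher and a median of 1.26 over all genes. The forkhead gene foxl2a (foxl2), which in mammals drives transcription of the FSH beta subunit, was at 453, 368, 339 and 375 NR against 34.7, 45.5, 67.05 and 46.1 NR (log2 fold change 2.99, standard error 0.22, limma BH-adjusted p = 1.08e-09). The basic helix-loop-helix gene neurod1, of neuroendocrine differentiation, was at 1426, 1127, 1191 and 1055 NR against 237, 196, 282 and 180.2 NR, lhx4, a LIM homeobox gene of the pituitary primordium, at 551, 515, 377 and 525 NR against 133, 124, 179 and 131 NR, and isl1a (LOC100700683) at 164, 136, 199 and 227 NR against 54.8, 85.8, 81.2 and 71.4 NR. Their log2 fold changes were 2.43, 1.79 and 1.29, all without overlap of the libraries. The homeobox gene six4 rose by 1.02, close to the limit. The homeobox gene nkx3.3 (LOC100705614) was at 25.99, 37.1, 24.02 and 24.4 NR with 2 reads in the 4 negative libraries together. The immediate early gene egr2 was at 1379.5, 1179.5, 745 and 524 NR against 46.6, 64.8, 68.2 and 39.6 NR (log2 fold change 4.04), and the kinase scaffold mapk8ip1a (LOC100690324) at 195, 266, 274 and 382 NR against 10.96, 10.5, 27.1 and 16.5 NR (log2 fold change 4.08). In that list of 15 MAP kinase and immediate early genes 7 were higher, 3 lower and 5 neither (median 0.76), the lower ones being map3k15 at -2.38 and the nr4a2 and nr4a3 genes described above.

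Among 7 genes of transforming growth factor beta and activin signalling 4 were higher and 3 lower (median log2 fold change 1.16), beside 69.7% higher, 18.8% lower and a median of 1.26 over all genes. The coreceptor tgfbr3, also named betaglycan, which in mammals binds inhibin, was at 710.1, 677, 641 and 761 NR against 27.4, 35.01, 55.3 and 42.9 NR (log2 fold change 4.13, standard error 0.25, limma BH-adjusted p = 3.22e-11). LH cells, at 14.6, 19.7, 21.9 and 28.6 NR, were below every FSH library too (log2 fold change of FSH over LH cells 5.01). The ligand gene tgfb1a (LOC100694653) was at 1413, 1220.1, 1182 and 1334 NR against 440.3, 385, 393 and 370.3 NR, and fstl4, a follistatin-like gene, rose by 2.08. The activin beta B subunit gene inhbb (LOC100705058) had 3 reads in the FSH libraries against 9.13, 5.25, 12.9 and 7.69 NR in negative cells, and the matrix protein gene tgfbi was at 0, 2.32, 2.40 and 0.905 NR against 22.8, 33.3, 31.8 and 15.4 NR.

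Adhesion, guidance, cytoskeletal and transporter genes are read here against the 69.7% of all genes called higher and the median of 1.26. Of 40 adhesion and axon guidance genes 31 were higher, 3 lower and 6 neither (median log2 fold change 1.29). The protocadherin pcdh9 (LOC100693785) was at 319.6, 354, 240.2 and 246 NR against 27.4, 22.8, 24.7 and 27.5 NR (log2 fold change 3.44) and the secreted guidance cue sema3c at 473, 351, 207 and 440.04 NR against 50.2, 12.3, 38.8 and 40.7 NR (log2 fold change 3.43). Other semaphorins, sema6b and sema5a, rose by 3.09 and 2.44, and the synaptic adhesion gene nlgn4xa (LOC100692208) by 2.46. On the lower side flrt2 was at 34.4, 46.4, 19.2 and 19.01 NR against 290.5, 102, 283 and 233 NR (log2 fold change -2.88). Of 25 motor and scaffold genes 19 were higher, 3 lower and 3 neither (median 1.37), among the higher ones dcx, a microtubule protein of migrating neurons, at 190.4, 179, 161 and 208 NR against 26.5, 10.5, 21.2 and 15.4 NR. The kinesin gene kif26a rose by 3.19. Of 16 cilium and axoneme genes 14 were higher, 1 lower and 1 neither (median 1.31), with no gene beyond 2.14, and 9 were higher with a pseudocount of 5. The gap junction gene gjd2 (1.01) and both genes of mitochondrial respiration, atp5if1b and cox4i2 (1.15 and 1.04), were higher with small changes. The call of gjd2 was lost with a pseudocount of 5. Of 37 solute carriers 23 were higher, 9 lower and 5 neither (median 1.07). They included the amino acid transporter slc1a4, at 87.1, 74.3, 69.7 and 215 NR against 5.48, 10.5, 15.3 and 31.9 NR (log2 fold change 2.83), and slc43a2b (LOC100703266), with 1 read in the FSH libraries against 36.5, 36.8, 27.1 and 34.1 NR.

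The genes lower in FSH cells included many that were not detected there. Of the 347 genes, 61 had no read in any FSH library and 102 had 1 to 3 reads in all 4 together. Fitted log2 fold changes of such genes depend on the pseudocount and are no bound. With these genes set to their bounds from the counts, the median of the 347 was -2.31 in place of -2.74. The 347 genes took 0.654 to 1.01% of the table's reads in FSH libraries, 14.3 to 18.2% in negative libraries and 21.1 to 32.0% in LH libraries. All 347 had a mean level in LH cells above that in negative cells, which follows from how the table was made.

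LOC109201927 and LOC100700404, both on linkage group 4, led this side. LOC109201927 (linkage group 4, 20678785 to 20680800) had no read in any FSH library, stood at 450.3, 362, 499 and 590.03 NR in negative cells and at 852, 1729, 1039 and 836 NR in LH cells, and was at least 122.6-fold higher in negative cells. LOC100700404 (linkage group 4, 13431533 to 13433115) likewise had none, against 255, 173, 315 and 319 NR in negative cells, which is at least 68.5-fold. These names carry no description in the annotation used. Several of the next genes are known from immune cells. The chemokine gene ccl19a.1 (LOC100700187) had 1 read in the FSH libraries against 220.1, 369, 127 and 202 NR, a ratio of 826 with a 95% counting interval of 148 to 32684. The signalling adaptor pik3ap1 and LOC100707040 also had 1 read each, against 173, 222, 98.8 and 185 NR and 151, 222, 119.98 and 144 NR. The lymphocyte factors runx3 and prdm1b (LOC100700828) were at 1.40, 0, 2.40 and 1.81 NR and 1.40, 0, 0 and 1.81 NR in FSH cells and at 293, 333, 199.97 and 269 NR and 182, 189, 178 and 198 NR in negative cells. The interleukin subunit il12bb (LOC100695399) had 2 reads in FSH cells against 105, 156, 79.99 and 116 NR, and bpifcl (LOC100690644) had none against 92.3, 103, 67.05 and 64.8 NR. Of the other leading genes, sftpba (LOC100702623), a surfactant protein B gene, the receptor phosphatase ptprm, si:ch211-153b23.7 (LOC102083118), LOC102076298 and LOC100710555 had 1 to 6 reads in all FSH libraries together and 89.4 to 289 NR in each negative library.

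**Figure D5:**
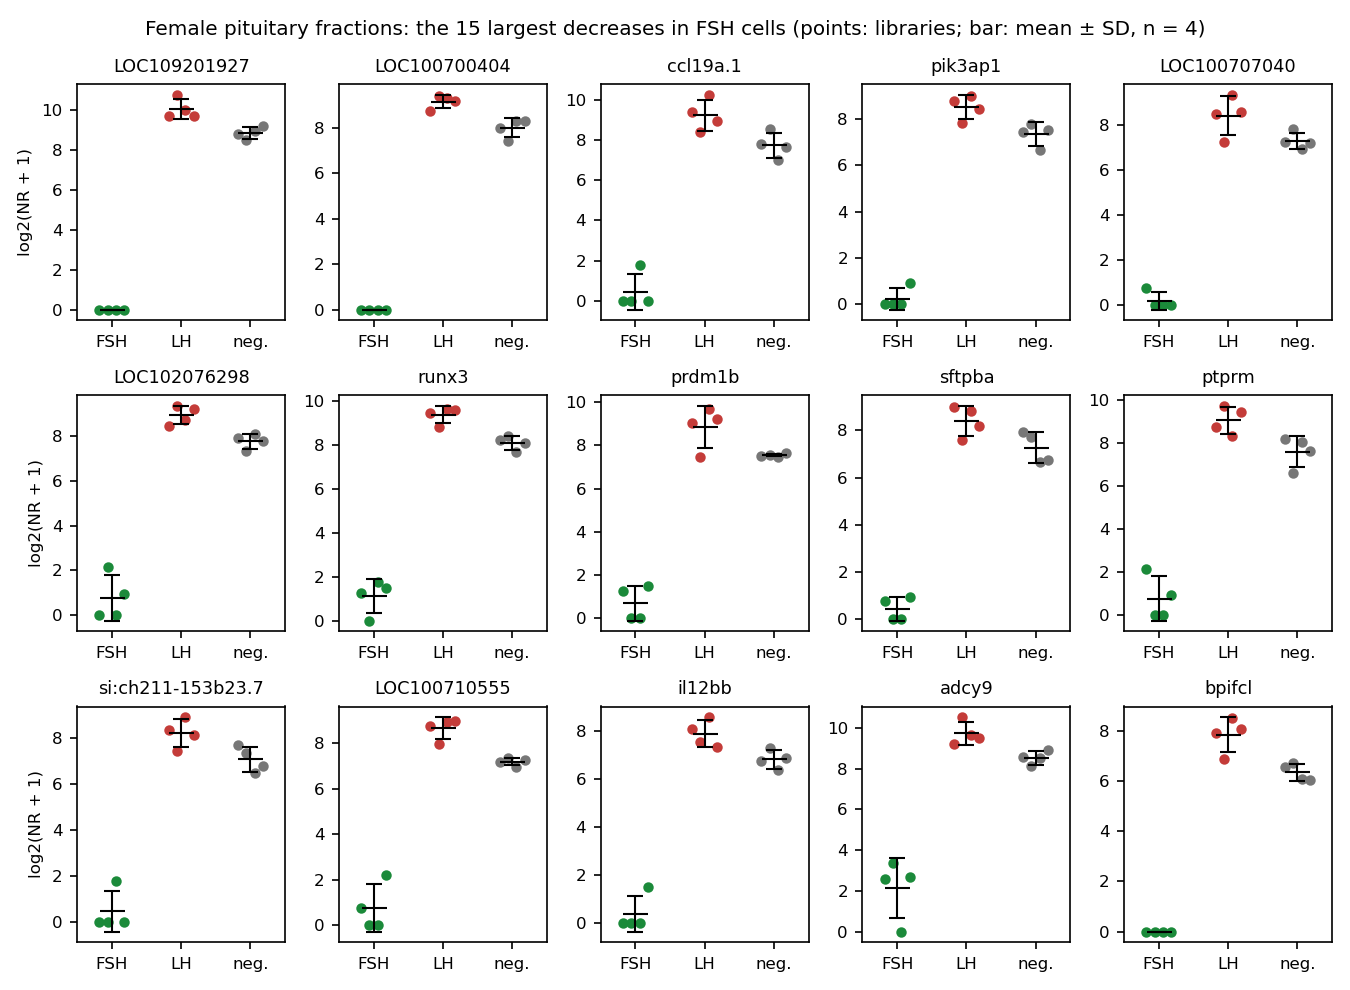
The 15 genes with the largest decrease in FSH cells among those whose libraries did not overlap, each panel giving log2(NR + 1) in FSH, LH and negative (neg.) cells of females; points are libraries, the wide bar is the mean and the whiskers are the SD (n = 4). LOC109201927, LOC100700404 and bpifcl lie at 0 in all 4 FSH libraries, and in every panel LH and negative cells stand far above FSH cells.

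Macrophage and leukocyte markers moved with this direction, while those of vessels and glia went both ways. Of 22 macrophage and leukocyte markers 17 were lower in FSH cells, 2 were higher and 3 were neither, beside 18.8% lower and 69.7% higher over all genes. The markers had a median log2 fold change of -2.48, or -1.62 with genes at their bound. Their summed level was 800 to 1508 NR in FSH libraries, 3087 to 4868 NR in negative libraries and 6222 to 14623 NR in LH libraries. The lower markers are in the table through their level in LH cells, so their share is not independent of the authors' selection. The macrophage growth factor receptor csf1r had no read in FSH cells against 18.3, 36.8, 59.99 and 26.4 NR in negative cells and 359, 104, 446 and 498 NR in LH cells, and the complement gene c1qb (LOC100693084) had 1 read against 33.8, 28.01, 50.6 and 21.98 NR. The myeloid factor spi1a (LOC100692791) had 2 reads against 12.8, 8.75, 3.53 and 3.30 NR. These defining markers were thus at or near 0 in FSH cells, while the invariant chain genes cd74, at 1021, 959, 567 and 534 NR against 2539, 2482, 1548 and 1681 NR, and cd74b (LOC100706178), at 294, 269, 171 and 133 NR against 1831, 1652, 1027 and 1272 NR, were lower but present. The 2 higher members were il4i1 (LOC100697201; log2 fold change 3.08), an amino acid oxidase, and the interleukin subunit il12ba (LOC100706746; 1.82). Of 11 endothelial and vessel wall markers 6 were higher, 5 of these being collagen chains, and 5 lower (median 1.28). Their summed level was 836 to 1322 NR in FSH libraries and 474 to 714 NR in negative libraries. Collagen chains were also among the lower members, namely col27a1b (LOC100698351; log2 fold change -6.01) and col8a1 (-1.90). The higher member that was not a collagen chain was esamb (LOC100700226; log2 fold change 1.28). The endothelial receptor kdrl (LOC100707615) was at 1.40, 0, 0 and 16.3 NR against 16.4, 22.8, 24.7 and 53.8 NR, and sox17, an endothelial transcription factor, had no read in FSH cells against 10.96, 17.5, 5.88 and 9.89 NR. The remaining lower member was ramp2 (limma BH-adjusted p = 5.11e-05). Of 2 glial and stem cell markers glula was higher (1.40) and fabp7a lower (-1.54), and no gene of the red blood cell or ribosome lists was in the table. The part of other cell types in the negative and LH fractions in these differences was not tested.

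Beside LH cells, 880 of the 1849 genes were higher in FSH cells (47.6%) and 453 lower (24.5%), a comparison that shares its FSH libraries with the one above. LH cells against negative cells, with shared negative libraries, had 28.5% of genes higher and 1.14% lower. The log2 fold changes over LH cells and over negative cells were 7.41 and 8.85 for cckbrb, 5.01 and 4.13 for tgfbr3, 1.91 and 2.99 for foxl2a, 3.69 and 4.04 for egr2, and 1.52 and 2.59 for pcsk1. For neurod1 they were 1.68 and 2.43, and for lhx4 1.20 and 1.79.

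FSH libraries were not alike in all genes. Sort 4 was in the 3 least alike pairs of FSH libraries by a chi-square of reads, whose mean per gene ranged from 3.49 to 32.7 between FSH libraries and from 2.94 to 5.78 between negative libraries. The chi-square grows with the number of reads, and FSH libraries held more reads on these genes, so the ranges of the fractions cannot be compared directly. Among the 1289 higher genes, 87 had an FSH library set apart by a gap past Dixon's critical value, a gap that chance gives in about 1 of 20 groups. Sort 4 was set apart as the highest FSH library in 48 genes, sort 3 in 19, sort 1 in 8 and sort 2 in 2. The synaptic scaffold gene dlgap2, chosen after its values were seen, was at 230.4, 294, 483 and 1214 NR in FSH cells against 9.13, 31.5, 34.1 and 13.2 NR. Sort 4 was again the highest. Leaving out the FSH library of sort 4, a choice made once the data had been seen, gave 1192 higher and 338 lower genes, and 1176 and 335 of them were among those called with all libraries.

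In males, whose libraries shared no fish with these, the same contrast was in the table for 1080 of the 1289 higher genes and 106 of the 347 lower genes. The male log2 fold change was above 0 in 1077 of the 1080 and below 0 in 103 of the 106, and 1054 and 84 were called in the same direction, where 75.8% and 7.53% of the male table's 2392 genes were called higher and lower. The male table too was selected by the authors for enriched genes, and its names had to be moved by 1 line, a step chosen because the fold changes of both sexes then matched, so their likeness is not independent. The male log2 fold changes were 7.95 for cckbrb, 7.64 for pde6hb, 5.38 for esr2a and 3.69 for tgfbr3, beside 8.85, 7.84, 5.36 and 4.13 in females. For foxl2a they were 5.01 in males and 2.99 in females. The gene named gabbr1 had male levels of 2.81, 5.71, 9.83 and 11.99 NR in FSH cells and 19.3, 6.03, 10.5 and 6.73 NR in negative cells, which overlapped (log2 fold change -0.46), unlike the female libraries. For syt7a the male libraries overlapped as well (log2 fold change 0.36). The difference between the sexes was not tested for these genes.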

How the data were processed

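RNA of FSH, LH and negative cells sorted from female pituitaries (4 sorts of pooled pituitaries) was made into stranded total RNA libraries. Per the labels and the study's methods, the authors checked reads with FastQC 0.11.4, trimmed them with Trim Galore, aligned them with STAR to O_niloticus_UMD_NMBU, counted reads per gene with HTSeq and divided them by DESeq2 size factors. The deposited values are therefore a normalized signal, not counts: reads per gene over a size factor (NR). Dividing by the value of 1 read returned whole reads for 100% of values, within 0.01 of a read, and size factors of 0.416 to 1.42 in the 12 female libraries. The deposited tables hold only genes the authors selected as enriched, so rescaling within the table was not tried. Deposited files of the authors' own fold changes and p-values were not used.

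Values were tested as log2(NR + 1) with limma 3.58.1 (R 4.3.3) in 1 fit of the 12 female libraries that let the variance follow the mean, with Benjamini-Hochberg adjustment over all 1849 genes. The male table (2392 genes) was fitted the same way after its names were moved by 1 line: unmoved, fshb stood at 177 NR in male FSH cells, and moved it stood at 48574 NR. The count test was edgeR 4.0.16 (quasi-likelihood) on the recovered reads with the authors' size factors. On simulated reads of the same genes, limma gave a BH-adjusted p below 0.05 with the right sign for 61% of genes with a 2-fold change. For a 4-fold change it did so for 99%. The fold limit of the calls was not applied there, so these are not rates of calls. The simulation used the same dispersion for all genes and libraries, while the chi-square of reads reached higher values between FSH libraries than between negative libraries. That chi-square grows with the number of reads, and FSH libraries held more of them, so whether the spread itself differed was not tested. Symbols and positions came from RefSeq (O_niloticus_UMD_NMBU), matched for 1584 of 1849 names; names of receptors without a symbol follow the study. Gene lists were built from symbols, and some list members may not do what the list name says.

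The 3 fractions of a sort came from 1 pool of fish by the study's design text. Equal library numbers were taken as the same sort, which the labels do not state. Same-numbered FSH and negative libraries deviated from their group means with correlations of -0.052 to 0.103 over 1849 genes. Differently numbered libraries had -0.085 to 0.089, so the correlations cannot show whether the numbers pair the libraries. P-values measure the spread between pools. Genes were named by rule: the 15 largest changes in each direction among called genes without overlapping libraries, the 5 higher genes with the highest NR, up to 4 called members of each list in each direction, and genes the study names. Other genes in the text (lhb, ara, kcnh6a, syt1, chgb, neurod1, lhx4, isl1a, chst8, cd74, cd74b, spi1a, dlgap2, list members given by their log2 fold change alone, and those of the closing section outside the lists) were chosen after their values were seen. The members and lists were chosen with earlier results of these data known. Intervals are exact Clopper-Pearson intervals at 95% and, like the floor of 3 reads, cover counting error only. Some list members are not reported here. Alternatives were other pseudocounts, a filter on low values, the sort as a block, fewer libraries and the count test.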

Additional observations from a re-analysis of the deposited data

Results flagged for a closer look

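The FSH and the negative libraries of the 132 genes given with values were looked at as separate groups. In 26 cases 1 library of 4 lay apart from the other 3 of its fraction by more than Dixon's 95% critical value, a gap that chance gives in about 1 of 20 groups. That rate does not apply where the other 3 libraries had no read, since any read then sets a library apart. In FSH cells, sort 4 was the library apart for pcsk1 (2880.2 NR), scg2b (2999.7 NR), nr4a3 (600.3 NR), slc1a4 (215 NR) and kdrl (16.3 NR), each time as the highest. It was also the only FSH library with a read of pik3ap1 and slc43a2b (0.905 NR each) and of il12bb and spi1a (1.81 NR each). Sort 1 was apart for gabbr1 (320.3 NR) and was the only FSH library with a read of trpv1, prkcq and LOC100707040 (0.702 NR each). Sort 2 was the highest for nkx3.3 (37.1 NR) and the only one with a read of c1qb (1.16 NR). Sort 3 was the highest for il12ba (24.0 NR) and the only one with a read of ccl19a.1 and si:ch211-153b23.7 (2.40 NR each).

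In negative cells the library apart was sort 2 for esr2a (8.75 NR), fgf10a (7.001 NR) and LOC100708895 (1.75 NR), sort 3 for nalcn (336 NR), lhx4 (179 NR) and cyp19a1b (114 NR), sort 4 for LOC109195943 (2.20 NR) and sort 1 for LOC100707060 (1.83 NR). Each was the highest negative library of its gene except that of LOC100707060, which was the lowest.

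LOC100707060, a collagen alpha-2(V) gene, stood higher in FSH than in negative cells of females, at 37.2, 10.4, 24.02 and 5.43 NR against 1.83, 3.501, 3.53 and 3.30 NR (log2 fold change 2.04). The study lists it among the most enriched genes of female LH cells, at a higher mean level there than in FSH cells. In males it was at 0.936, 2.86, 0 and 2.40 NR in FSH cells and 13.9, 16.6, 19.3 and 4.49 NR in negative cells (log2 fold change -2.54), with every library on the opposite side. The difference between the sexes was not tested.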

How the results depend on the processing

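Counts of higher and lower genes were 1297 and 348 with a pseudocount of 0.5, 1140 and 281 with a pseudocount of 5, and 1247 and 315 when genes needed 10 NR in 4 libraries. They were 1289 and 345 from the FSH and negative libraries alone, 1287 and 347 without the mean-variance trend, and 1340 and 345 by edgeR on the recovered reads, whose calls held 1286 of the 1289 and 339 of the 347. With the sort as a replicate block, by which same-numbered libraries were paired, they were 1286 and 343 and held 1286 and 343 of the same genes. A limit of 2 on the log2 scale left 376 and 258. Leaving out 1 sort at a time gave 1156 to 1250 higher and 333 to 344 lower genes.

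Of 1450 recomputed fold changes of 132 genes given with values, 1440 kept their direction and side of the limits. The others belonged to 7 genes. Without 1 sort, LOC100534509, ara, syt7a and chst8 lost their call, lhb and LOC100534567 gained one in 2 settings each, and drd2a, not called in any, ranged from -0.116 to 0.32 in place of 0.09. Of 336 recomputed list counts 11 moved by more than 1.5 times, 9 of them with a pseudocount of 5. Causes of these changes were not tested. Scaling other than the deposited size factors was not tried, because the table holds selected genes only. Genes with 0 to 3 reads in a fraction carry no fold change beyond their bound, and low genes are the least precise.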

Other observations

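Apart from apln and esr2a, which the study names, the genes below lie outside the lists. They had clear values and were chosen after these were seen. Secreted factors went both ways. The neurotrophic factor gene gdnf was at 86.4, 98.7, 151 and 161 NR in FSH cells against 2.74, 14.003, 4.71 and 3.30 NR in negative cells (log2 fold change 4.31), and apln, the precursor of the peptide apelin, at 63.2, 58.05, 52.8 and 53.4 NR against 1.83, 8.75, 8.23 and 2.20 NR (log2 fold change 3.43). The growth factor fgf10a (LOC100700362) was at 30.2, 25.5, 38.4 and 76.1 NR against 0.913, 7.001, 1.18 and 1.10 NR. The tachykinin precursor tac1 was at 32.3, 39.5, 31.2 and 49.8 NR against 2.74, 10.5, 0 and 10.99 NR and wnt4b (LOC100712297) at 68.1, 58.05, 33.6 and 66.1 NR against 14.6, 17.5, 14.1 and 8.79 NR, with log2 fold changes of 3.02 and 1.95. FSH libraries did not all agree in these levels, but each gene was called higher.

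Lower in FSH cells were the insulin-like growth factor gene igf1, at 2.81, 4.64, 0 and 0.905 NR against 18.3, 21.004, 11.8 and 9.89 NR, and fgf18a (LOC100704516), at 2.81, 3.48, 0 and 1.81 NR against 49.3, 14.003, 41.2 and 14.3 NR. The brain-type aromatase gene cyp19a1b (LOC100534396), whose product makes estrogen from androgen, was at 40.04, 41.8, 38.4 and 29.9 NR in FSH cells, 87.7, 82.3, 114 and 85.7 NR in negative cells and 197, 287, 124 and 162 NR in LH cells (log2 fold change over negative cells -1.28). The same FSH libraries held the estrogen receptor gene esr2a at 155, 189, 245 and 279 NR. The crystallin gene cryba2 was at 537, 477, 694 and 1067 NR against 45.7, 26.3, 62.3 and 35.2 NR (log2 fold change 4.00), and the apolipoprotein E gene apoeb (LOC100699941) at 5.62, 2.32, 9.61 and 0.905 NR against 54.8, 137, 259.96 and 114 NR (log2 fold change -4.75).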
